A study of Homo sapiens with 6 samples.

Results

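The 8 hepatic organic ion transporter genes were examined for chromatin bound by the tandem Tudor domain (TTD) of UHRF1 in HepG2 cells: the uptake carriers SLCO1B1, SLCO1B3, SLCO2B1, SLC22A3, SLC22A7 and SLC22A9, and the efflux pumps ABCC2 and ABCC6. The members were taken by name, with earlier results of these data known, and they are 8 of the 20033 protein-coding genes of GENCODE release 44. HepG2 is an untreated cell line derived from a liver tumour, a hepatoblastoma, so all values stand for 1 line. In CIDOP, a purified GST-tagged TTD takes the place of an antibody and pulls down native mononucleosomes released by MNase. The series holds 6 libraries, namely 2 biological replicates each of TTD CIDOP, of H3K9me2 ChIP with an antibody, and of input. The replicates of TTD CIDOP were averaged before peak calling, so the deposited list of 31569 broad peaks gives 1 value per gene, with no replicate error and no test, and it holds no read counts. A peak list holds no expression values, so neither the liver identity of the cells nor the expression of the transporters was checked here.

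The organic anion transporting polypeptides (OATPs, SLCO genes) and the SLC22 carriers bring bile acids, bilirubin, hormone conjugates, organic cations and many drugs from the blood into the hepatocyte. ABCC pumps use ATP to move conjugates out again, ABCC2 into bile and ABCC6 across the basolateral membrane. The TTD of UHRF1, a protein needed for maintenance of DNA methylation, reads methylated lysine 9 of histone H3, and its binding is favoured where the same tail carries H3K4me1, a mark common at enhancers and promoter flanks.

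Promoter sequences are given here to show the start sites that lay inside, or close to, TTD peaks. RefSeq windows on GRCh38.p14, 250 bases before to 50 bases after a start site, were held for 6 members in 8 entries, and there was none for SLC22A3 and SLC22A9. The windows wholly inside a TTD peak are given for SLCO1B3 (chr12:20810455-20810754), SLC22A7 (chr6:43298010-43298309) and an internal start site of SLCO2B1 (chr11:75159582-75159881). ABCC2 (chr10:99782390-99782689) is shown because its start site lay outside peaks but nearest to one, and SLCO1B1 (chr12:21130944-21131243) as the paralogue of SLCO1B3, a choice made after its values were seen. All 5 windows are on the plus strand. Capitals mark matches to the letters of liver factor motifs that were searched on both strands, namely TGTTTAC for FOXA, then GTTAAT for HNF1, and CAAAGTCCA or CAAAGTTCA for HNF4A.
SLCO1B3: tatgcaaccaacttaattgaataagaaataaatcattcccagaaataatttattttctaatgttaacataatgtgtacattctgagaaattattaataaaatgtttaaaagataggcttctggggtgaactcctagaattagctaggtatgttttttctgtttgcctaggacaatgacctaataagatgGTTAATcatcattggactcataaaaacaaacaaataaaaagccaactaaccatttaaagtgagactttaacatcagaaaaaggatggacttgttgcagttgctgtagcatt
SLCO1B1: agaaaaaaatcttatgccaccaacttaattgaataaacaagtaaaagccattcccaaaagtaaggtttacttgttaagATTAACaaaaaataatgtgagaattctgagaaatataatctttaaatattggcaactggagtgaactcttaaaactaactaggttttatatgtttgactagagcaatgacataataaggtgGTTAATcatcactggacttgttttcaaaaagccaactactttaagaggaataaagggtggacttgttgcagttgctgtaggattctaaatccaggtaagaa
SLC22A7: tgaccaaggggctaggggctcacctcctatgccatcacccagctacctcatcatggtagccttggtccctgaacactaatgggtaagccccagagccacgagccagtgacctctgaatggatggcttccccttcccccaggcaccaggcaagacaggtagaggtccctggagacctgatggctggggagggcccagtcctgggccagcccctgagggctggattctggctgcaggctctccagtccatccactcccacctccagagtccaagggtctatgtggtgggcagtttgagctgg
SLCO2B1: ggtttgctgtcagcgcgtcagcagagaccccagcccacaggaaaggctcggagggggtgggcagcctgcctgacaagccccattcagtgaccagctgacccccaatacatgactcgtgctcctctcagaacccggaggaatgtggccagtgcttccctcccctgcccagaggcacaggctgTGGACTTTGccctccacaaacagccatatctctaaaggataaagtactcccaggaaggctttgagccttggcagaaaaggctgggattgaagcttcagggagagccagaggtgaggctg
ABCC2: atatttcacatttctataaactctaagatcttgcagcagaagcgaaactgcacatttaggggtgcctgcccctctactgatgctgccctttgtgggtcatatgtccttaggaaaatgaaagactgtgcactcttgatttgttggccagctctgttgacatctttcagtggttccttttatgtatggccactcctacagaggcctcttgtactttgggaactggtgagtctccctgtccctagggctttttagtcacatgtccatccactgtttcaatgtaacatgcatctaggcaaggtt

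The windows of SLCO1B1 and SLCO1B3 were alike in sequence but not in their overlap with TTD peaks. They matched at 216 of 261 aligned bases (82.8%), against 63.2% for SLCO1B1 and 60.3% for SLCO1B3 when each was aligned with ABCC2. Both held the letters GTTAAT, 61 bases before the start site in SLCO1B3 and 51 bases before it in SLCO1B1, and SLCO1B1 held them again on the opposite strand at 172 bases before it. The window of SLCO1B3 lay 100% in a peak, and that of SLCO1B1 had no overlap with one, its start site lying 3887 bp from the nearest. Neither contained a CG dinucleotide. The SLCO2B1 window held an HNF4A match on the opposite strand, 69 bases before the start site, and those of SLC22A7 and ABCC2 held none of the letters searched. Of 34943 RefSeq promoter windows, 6.90% held the HNF1 letters, 0.678% those of HNF4A, 3.42% those of FOXA, and 10.6% any of them. Among the windows wholly in a peak, as those of SLCO1B3 and SLCO2B1 were, the shares were 13.9% for HNF1, 3.70% for HNF4A, 6.52% for FOXA and 21.8% for any. The windows of SLCO1B1 and SLCO1B3 had only 31.3% and 30% GC, and none of these shares was matched for GC content. Such matches are a description of the letters and not of binding, and 1027 of all windows (2.94%) lay wholly in a peak.

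Every member carried TTD-bound chromatin, at different places in the gene. SLCO1B3, SLC22A7 and SLC22A9 had a peak over the transcription start site itself (TSS, the 5′ end of the gene in GENCODE), ABCC2 had peaks on both sides of it, and SLCO1B1, SLCO2B1, SLC22A3 and ABCC6 had peaks only farther away. A peak touched the gene body in 8 of 8 members, whereas 34.2% of all protein-coding genes had one. Long genes meet a peak more often, and among genes of 40 to 120 kb, a range that holds 7 members, the share was 49.9%. Within 2.5 kb on either side of the TSS, 4 of 8 members had a peak, against 16.9% of all protein-coding genes. All 8 members had a peak within 100 kb of the TSS, which was common, as 77.9% of all protein-coding genes did.

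**Figure D1:**
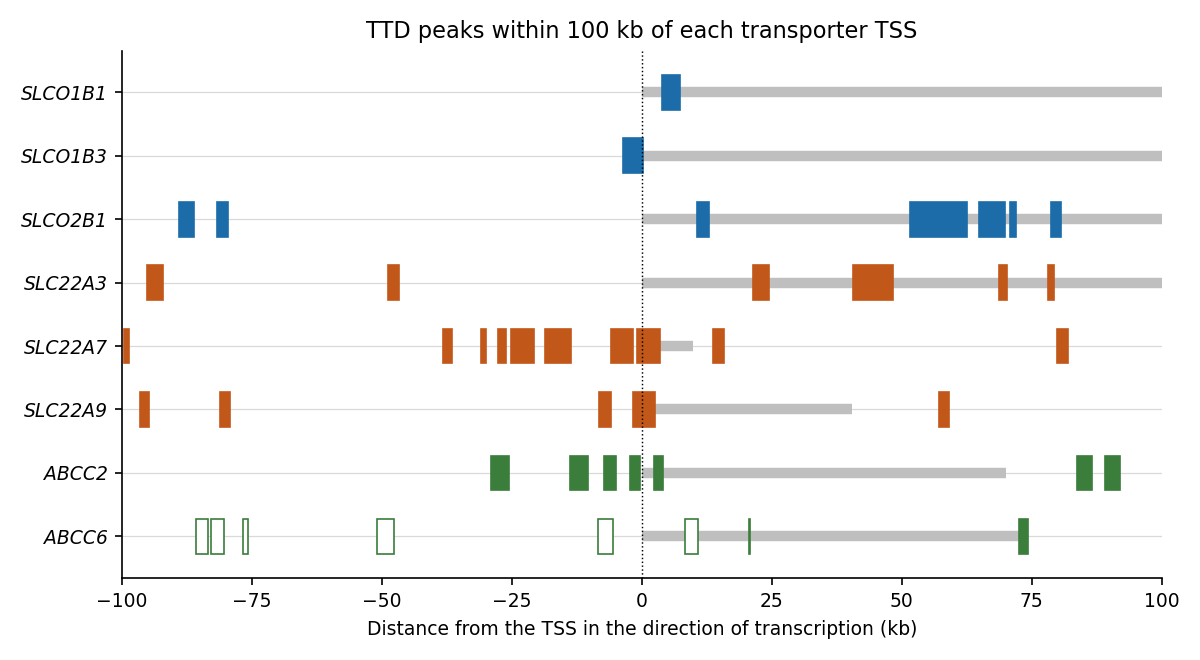
Position of every TTD peak within 100 kb of the TSS of the 8 transporter genes (x axis, kb in the direction of transcription; grey bars, gene bodies). Bars are peaks to scale (blue, OATP; orange, SLC22; green, ABCC); open bars lie wholly in sequence that is copied elsewhere on the same chromosome. Peaks cross the TSS of SLCO1B3, SLC22A7 and SLC22A9, and the TSS of ABCC2 lies in a gap of 2770 bp between peaks.

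The share of bases inside TTD peaks, called cover and given in percent, was 8.12% over the 8 gene bodies together (619.268 kb), 33.2% over the TSS windows of 5 kb each and 7.95% over the windows reaching 100 kb to each side. Peaks covered 3.02% of the genome. The median member had 5.93% cover of the gene body, 20.1% of the TSS window and 8.79% of the 100 kb windows, whereas the medians over all protein-coding genes were 0%, 0% and 2.00%. The members differed widely around these medians. Cover of the 100 kb windows ran from 1.72% in SLCO1B1 to 13.7% in SLC22A7, and was above the upper quartile of all protein-coding genes (5.03%) in 6 of 8 members, the exceptions being SLCO1B1 and SLCO1B3. ABCC6, at 8.21%, was the lowest member, at 0.87%, when its peaks in copied sequence were left out, which makes the count 5 of 8. When only peaks of at least the list median of 2250 bp were kept, SLC22A9 went from 5.97% to 2.15% and SLC22A7 from 13.7% to 9.02%, and SLCO2B1 was then the highest member with 10.6%. With 8 genes and a pooled list, these figures describe the members and carry no test.

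**Figure D2:**
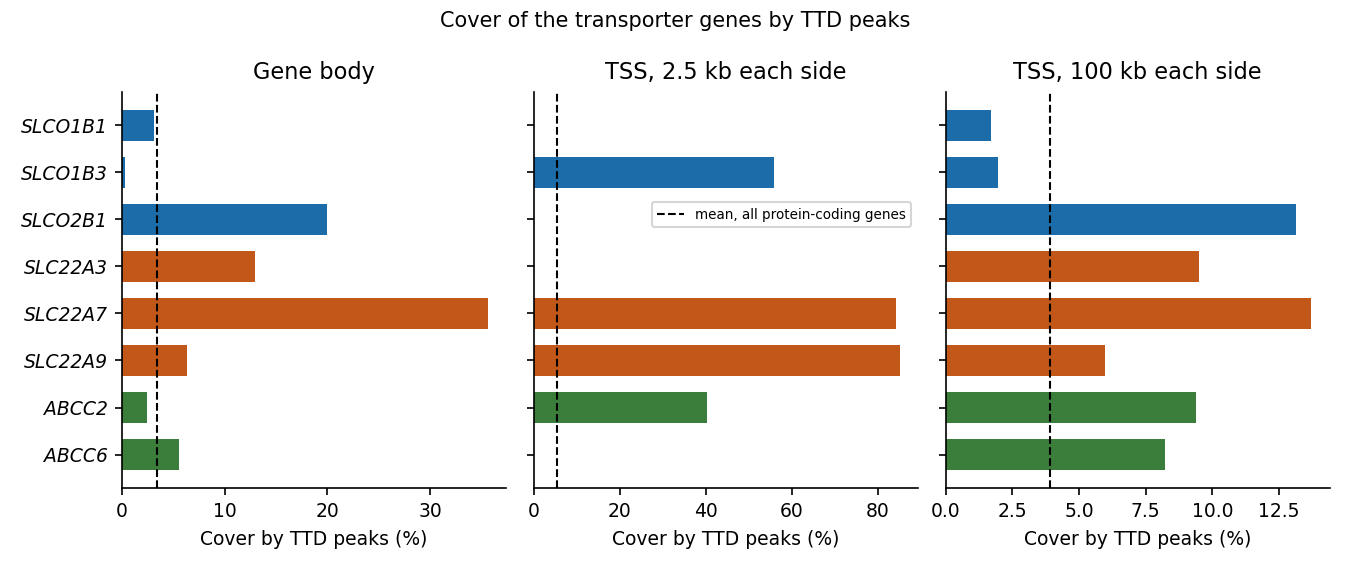
Cover of the gene body, of the TSS window and of the 100 kb windows in percent (x axes) for each transporter gene (blue, OATP; orange, SLC22; green, ABCC). Each bar is 1 value from the pooled list, without replicate error, and the dashed lines are means over 20033 protein-coding genes. With all peaks, SLC22A7 has the highest bar for the gene body and the 100 kb windows, and SLC22A9 that for the TSS. SLCO2B1 is highest for the gene body without its first 2.5 kb and for the 100 kb windows with wider peaks only. SLC22A7 is highest for the TSS with 5 kb on each side. These alternatives are not drawn.

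SLCO1B3 encodes OATP1B3, a carrier of bile acids, bilirubin and drugs at the sinusoidal membrane of the hepatocyte. The gene lies at chr12:20810702-20916911 on the plus strand. Its only peak spanned 3950 bp, from 3661 bp upstream of the TSS to 288 bp inside the gene, and so contained exon 1. The 2.5 kb upstream of the TSS lay 100% in the peak, but the 2.5 kb downstream only 11.6%. The listed peak was thus mainly on the upstream side and ended shortly past the start. The rest of the gene body, which is 106.21 kb in full, held no peak. The TSS window had 55.8% cover, as much or more than which was seen in 2.00% of protein-coding genes. Of its 5 annotated transcript starts, 2 lay in the peak, and those farther inside the gene did not.

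SLCO1B1 encodes OATP1B1, the closest paralogue of OATP1B3 and the main hepatic uptake carrier of statins. The gene lies at chr12:21131194-21239796 on the plus strand and likewise had a single peak, of 3430 bp. In this gene, however, the peak sat inside the transcribed region, from 3887 to 7316 bp downstream of the TSS, in intron sequence that touched no exon of the gene. An overlapping protein-coding locus, ENSG00000257062, also spans this peak. The TSS window had 0% cover and the 100 kb upstream had no peak, as the nearest peak on that side was the one over the TSS of SLCO1B3, 320204 bp away. The paralogues therefore had a similar amount of cover in their 100 kb windows, 1.72% for SLCO1B1 and 1.98% for SLCO1B3, but mostly upstream of the TSS in SLCO1B3 and wholly downstream in SLCO1B1.

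These were the only peaks of the SLCO1 gene cluster, which runs for 724.263 kb from SLCO1C1, the carrier of thyroid hormone in brain vessels and choroid plexus, to SLCO1A2 (chr12:20695332-21419594). The cluster held 2.76 peaks per Mb and chromosome 12 held 9.39. Peak-free stretches of 324090 bp between the peaks and of 384600 bp beyond the SLCO1B1 peak framed them, and 7.27% and 5.76% of the 1251 gaps between peaks on this chromosome were as long. No peak touched the bodies of SLCO1C1, of SLCO1A2 or of SLCO1B7, which GENCODE lists as a pseudogene. The 100 kb windows of SLCO1C1 had 7.33% cover, in 3 peaks, while SLCO1A2 and SLCO1B7 had none within 100 kb.

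**Figure D3:**
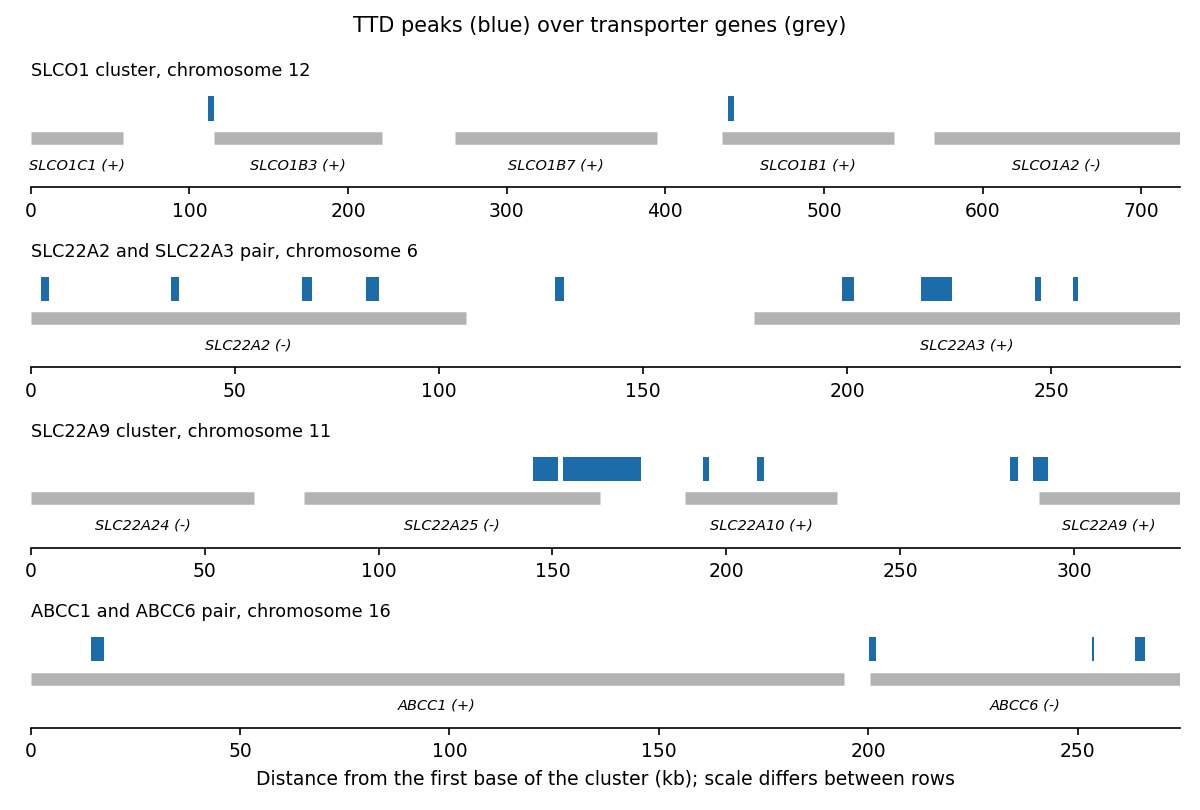
TTD peaks across the gene clusters that hold SLCO1B1 and SLCO1B3, SLC22A3, SLC22A9, and ABCC6 (x axes, distance in kb from the first base of the cluster, with a scale of its own for each; grey bars, genes with their strand; blue bars, peaks to scale). The SLCO1 cluster holds 2 peaks in 724.263 kb, and the SLC22A2 and SLC22A3 pair holds 9 in 281.517 kb.

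SLCO2B1 encodes OATP2B1, a carrier of steroid sulphates and drugs found in liver, intestine and other tissues. It had 5 peaks in the gene body (chr11:75100563-75206549, plus strand), and 19.96% cover there was reached by 3.95% of protein-coding genes of like length, meaning within 2 times the length in either direction. The widest, of 11010 bp, ran from 51478 to 62487 bp inside the gene and held exon 2 of the canonical transcript, and a peak of 4940 bp then covered exons 4, 5 and 6. Only 2.30% of all listed peaks were 10 kb or wider. This broad binding lay around internal start sites rather than at the 5′ end. Of 19 annotated transcript starts, 6 lay in a peak. The RefSeq start site of the SLCO2B1 promoter shown also lay in the widest peak.

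The SLCO2B1 value at the TSS depended on which start was taken. The outermost start belongs to a transcript without a defined coding sequence, and its window had 0% cover, with the nearest peak 10598 bp away. The canonical transcript starts 50544 bp farther in, 934 bp before the 11010 bp peak, and the same window there had 31.3% cover. The RefSeq promoter of that start had no overlap with a peak, while the one inside the broad peak lay 100% within it.

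SLC22A7 encodes OAT2, a hepatic carrier of organic anions and nucleotides. It was the shortest member (chr6:43295694-43305538, plus strand, 9.845 kb) and had the highest cover of the gene body, with 35.6% in 1 peak. Without the first 2.5 kb of each gene the value was 13.7%, below the 20.4% of SLCO2B1. Only 15.0% of protein-coding genes of like length had any peak, and 2.30% had as much cover. The peak of 4400 bp reached from 893 bp upstream of the TSS to 3506 bp downstream and held exons 1 and 2, and another of 4210 bp ended 1684 bp upstream. The TSS window had 84.2% cover, which 0.484% of protein-coding genes equalled or exceeded, and 7 of 8 annotated transcript start positions lay in a peak. From the canonical start, 2566 bp inside the gene, the cover of the window was 68.8%.

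The surroundings of SLC22A7 were bound as well. Within 100 kb there were 10 peaks, with 19.7% cover upstream and 7.72% downstream. Of the upstream peaks, 5, of 960 to 4990 bp, lay in TTBK1, a tau tubulin kinase gene expressed mainly in neurons. A peak also reached the TSS window of CRIP3, a neighbour that starts 13132 bp downstream, with 39.1% cover. Chromosome 6 was rich in peaks (16.7 per Mb), and 19.3% of its protein-coding genes had as much cover in the 100 kb windows as SLC22A7, whereas 5.85% did so genome-wide.

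SLC22A9 encodes OAT7, a liver carrier that exchanges short-chain fatty acids for sulphate conjugates. Its TSS (chr11:63369785-63410294, plus strand) lay inside a peak of 4300 bp that reached from 1754 bp upstream to 2545 bp downstream and held exons 1 and 2. The cover of the TSS window was 85.1%, the highest of the members, and 0.469% of protein-coding genes had as much. With 5 kb on each side of the TSS, the cover was 43% for SLC22A9 and 77.2% for SLC22A7. Both annotated transcript start positions lay in the peak. No other peak lay in its gene body of 40.51 kb, but the peak over the start held 32.9% of the exon bases of the canonical transcript.

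In its gene cluster, which spans 330.355 kb (chr11:63079940-63410294), SLC22A9 was joined by SLC22A25, a related orphan carrier. There, the TSS window lay 100% in a peak of 22220 bp, the widest of the cluster. SLC22A10 had 2 peaks in its body but none at its TSS, and SLC22A24 had none in either place. The cluster had 11.95% cover in 6 peaks.

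SLC22A3 encodes OCT3, an extraneuronal carrier of organic cations and monoamines. In contrast to the other SLC22 members, its peaks were all away from the start. The gene body (chr6:160348378-160452577, plus strand) held 4 peaks with 13.0% cover, all intronic, and 8.68% of genes of like length had as much. The widest, of 7680 bp, lay 40703 to 48382 bp inside the gene. The TSS lay in a peak-free stretch of 68160 bp, with the nearest peak 21463 bp downstream. Its neighbour SLC22A2, the gene of the renal carrier OCT2, also had 4 peaks in the body and 0% cover at its TSS. The stretch of 281.517 kb from SLC22A2 to SLC22A3 held 9 peaks.

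**Figure D4:**
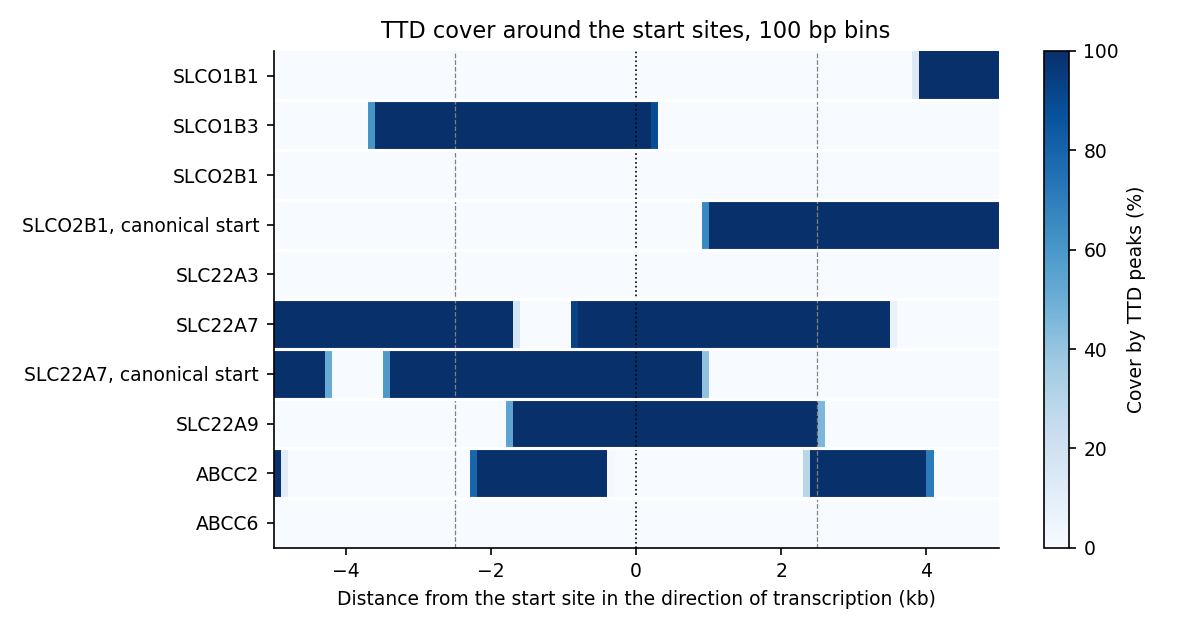
TTD cover from 5 kb upstream to 5 kb downstream of the start site (x axis, kb in the direction of transcription) in bins of 100 bp, 1 line per transporter gene, with the colour giving the percent of each bin in a peak. The dotted line is the start site, the dashed lines bound the TSS window, and SLCO2B1 and SLC22A7 are also shown from the start of the canonical transcript. Peaks stop shortly past the TSS in SLCO1B3, span it in SLC22A7 and SLC22A9, and leave a gap around it in ABCC2.

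ABCC2 encodes MRP2, the pump that exports bilirubin glucuronides and other conjugates into bile. Its TSS (chr10:99782640-99852594, plus strand) was flanked by peaks rather than covered. A peak of 1880 bp ended 400 bp upstream, and one of 1700 bp began 2371 bp downstream in intron sequence, which left a gap of 2770 bp with the TSS in it. Such a gap was short, since 15.6% of all gaps between listed peaks were as short or shorter. The TSS window had 40.2% cover, with 75.2% in the upstream arm and 5.16% in the downstream arm, and 4.44% of protein-coding genes had as much. None of the 7 transcript starts lay in a peak, and the exons of the canonical transcript had no cover. Farther upstream, peaks of 2360, 3390 and 3560 bp followed, the last of them in CUTC, so that the cover of the 100 kb upstream was 11.2% and that of the 100 kb downstream 7.57%. Because both flanking peaks were narrower than the list median of 2250 bp, the cover of the TSS window was 0% when only wider peaks were kept.

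ABCC6 encodes MRP6, which mediates ATP release from hepatocytes and is mutated in pseudoxanthoma elasticum. The gene lies on the minus strand (chr16:16149565-16223522). Its TSS window had 0% cover, the nearest peak ending 5579 bp upstream. In the body were 3 peaks with 5.58% cover, of which one of 1740 bp held the last exons, 30 and 31, one of 2400 bp held exon 5, and one of 350 bp was intronic. The 100 kb windows had 8 peaks and 8.21% cover. Next to it, ABCC1, the gene of the broadly expressed pump MRP1, had 1 peak in its body, and the stretch of 182670 bp from that peak to the one at the last exons of ABCC6 held none.

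Most of the ABCC6 values rested on copied sequence. Of its 8 peaks, 7 lay wholly in sequence that has a copy of at least 95% identity elsewhere on chromosome 16, and only the peak at exons 30 and 31 did not. No peak of any other member lay wholly in such a copy. Leaving out these 7 peaks, an alternative added after the data were seen, took ABCC6 from 5.58% to 1.86% cover of the gene body and from 8.21% to 0.87% of the 100 kb windows. Of 15 places on chromosome 16 that matched one of these peaks over its whole length, 13 also held a peak. The pseudogene ABCC6P1 had 4 peaks and 29.6% cover, and ABCC6P2 had none. How reads that map to several places were treated is not given in the sources used here, and their part in the ABCC6 values was not tested. The other members' peaks were affected less, the largest copied share being 41.6% of the SLCO1B1 peak.

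The 45 peaks within 100 kb of the members resembled those of the whole list in width, with medians of 2360 and 2250 bp. Their median GC content was 44.8%, and that of the list 43.2%. By location, 17 lay over a member, 15 over another protein-coding gene only, and 13 over no protein-coding gene. Of the 17 in member bodies, 8 touched an exon of the canonical transcript and 9 were intronic. Of 13 protein-coding neighbours that start within 100 kb of a member, 2 had a peak in the TSS window, CRIP3 next to SLC22A7 and NOMO3 next to ABCC6. Among all protein-coding genes the share was 16.9%. The peak at NOMO3, of 2870 bp, lay wholly in copied sequence.

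The starts of most members were poor in CpG. The ratio of observed to expected CpG in the 1 kb around the TSS was in the lowest quartile of protein-coding genes (below 0.329) for 6 of 8 members, from 0.165 in ABCC2 to 0.289 in SLC22A9. ABCC6 had a ratio of 0.558 and SLC22A3, with 0.919, was in the top quartile. The 4 members with a peak in the TSS window, SLCO1B3, SLC22A7, SLC22A9 and ABCC2, all belonged to the CpG-poor ones, as did SLCO1B1 and SLCO2B1, which had none. Across protein-coding genes in the lowest quartile, 15.1% had a peak in the TSS window, close to the 16.9% of all genes. The TSS base itself was in a peak in 3 of 8 members (37.5%), in 2.94% of all protein-coding genes, and in 7.09% of the CpG-poor quartile.

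Among 49 related transporter genes, listed by family and by liver function, 26 (53.1%) had a peak in the body, 10 (20.4%) in the TSS window and 39 (79.6%) within 100 kb. For all protein-coding genes these shares were 34.2%, 16.9% and 77.9%, so the last 2 were close. A median cover of 2.77% in the 100 kb windows compared with 8.79% for the members and 2.00% for all protein-coding genes. A TSS window covered by 50% or more was found in 3 of 8 members and 4 of the 49 related genes, and in 2.57% of all protein-coding genes. The 4 related genes were SLC22A25 (100%), SLC10A1 (80.6%), which encodes the bile acid uptake carrier NTCP, ABCB4 (71.5%), which encodes the phospholipid floppase of bile, and SLC51B (59.4%), which encodes the beta subunit of the bile acid exporter OST. The largest cover of the 100 kb windows was seen in SLC22A23 (25.6%), SLC10A1 (23.7%), SLC22A10 (17.6%), SLC22A25 (16.5%) and ABCC12 (16.3%), all above the highest member, SLC22A7. By family, the 9 other OATP genes had a median of 0.69%, the 18 other SLC22 genes 3.38%, the 9 other ABCC genes 4% and the 13 other hepatic transporters 4.2%. All 9 other ABCC genes had a peak in the gene body, as both ABCC members did, but 1 of them had one at the TSS. Among protein-coding genes of 40 to 120 kb, 49.9% had a peak in the body. These 9 genes were 23062 to 281641 bp long, and cover of their bodies ran from 0.93% to 35.5%.

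**Figure D5:**
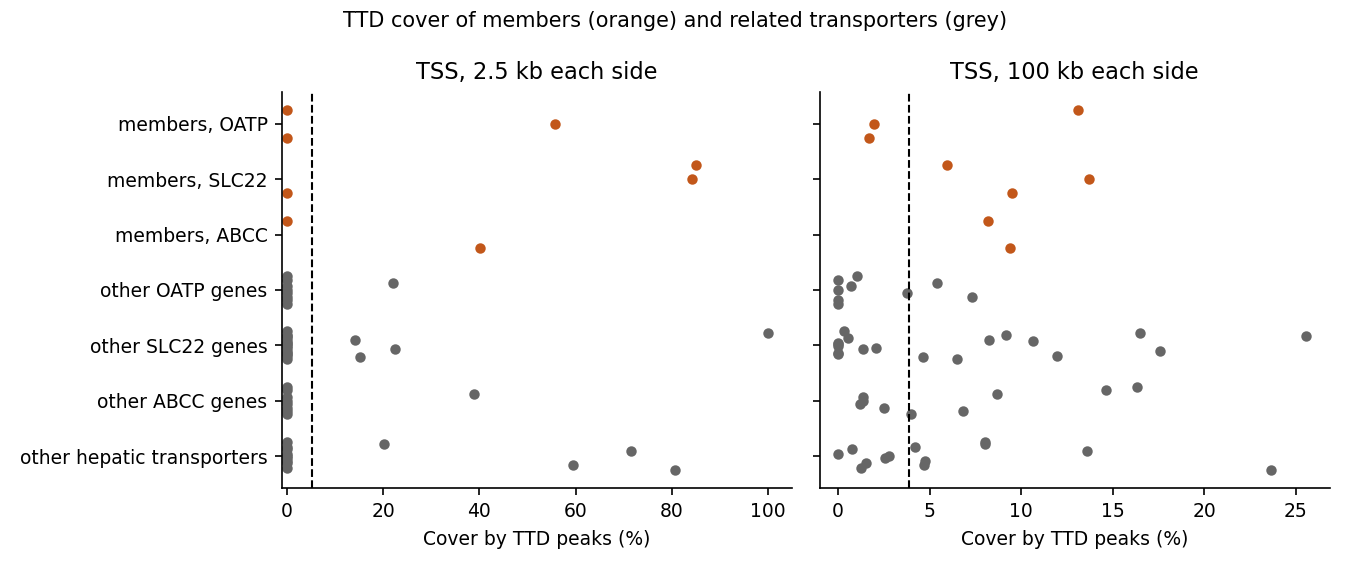
Cover of the TSS window and of the 100 kb windows in percent for the 8 members (orange) and the 49 related transporter genes (grey), each point being 1 gene and the dashed lines being means over all protein-coding genes. The TSS cover is 50% or more in 3 members and 4 related genes, and several related genes exceed the members in the 100 kb windows.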

How the data were processed

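Chromatin from untreated HepG2 cells was precipitated with the GST-tagged UHRF1 TTD in 2 replicates. Per the labels and the methods of the study, the authors used Trimmomatic 0.38, FastQC 0.72, HISAT2 2.2.1, deepTools 3.3.2 and MACS2 2.1.1 on hg38: reads were mapped, RPKM coverage in 10 bp bins was averaged over both replicates, this mean was used to call broad peaks, and blacklisted regions were removed before manual curation. The authors deposited 1 pooled list, whose values are peak positions and widths in bp. The averaging removes replicate error, and fixed cutoffs can join or split broad domains. The methods name no input control in the peak calling, and differences in copy number between chromosomes were not tested here. H3K9me2 and input signals were not analysed here.

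Peaks were intersected with GENCODE release 44 genes on hg38. The TSS was the 5′ end of the gene, like length meant within 2 times, and transcript exons were those of the canonical transcript. Copies were sought with minimap2 2.31 on each peak's own chromosome, with at least 150 bp and 95% identity. Promoters came from RefSeq. Members and lists were chosen with earlier results of these data known, and of the related lists SLC22A20 was not matched and 1 gene is not reported here. Named were all members, related genes with 50% or more TSS cover, the 5 with most cover within 100 kb, and those clustered with a member. Of the peaks, those over a TSS, of 5 kb or more, widest in a body or nearest to a TSS were given by rule, and other peaks named were chosen after their values were seen. Calculations used Python 3.11.15, numpy 2.4.6, pandas 2.3.3, pysam 0.24.0 and matplotlib 3.10.9 and were tested on simulated data.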

Additional observations from a re-analysis of the deposited data

How the results depend on the processing

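The counts of members with a peak varied little: 7 or 8 for the gene body, 3 to 5 for the TSS window, and 8 for the 100 kb windows under every alternative tried for each. The SLCO1 cluster held 2 peaks under each alternative. The cover over all members was set against a counting interval (95%, Wilson, over fragments of 150 bp). It treats neighbouring fragments of a peak as independent, so it is too narrow to serve as an error and only labels changes. The cover moved by more than this interval in these cases. With only peaks of at least 2250 bp, the cover went from 8.12% to 6.64% over gene bodies and from 7.95% to 5.83% over the 100 kb windows. With 5 kb on each side of the TSS, the TSS value went from 33.2% to 26.0%. The 100 kb value was 9.29% with 50 kb on each side, 5.97% for the gene body with 100 kb on each side, and 7.03% without peaks in copied sequence, an alternative chosen after seeing the data. For single members, 31 of 80 alternative values moved. The list gives no read counts, peak heights or replicate values, so weakly bound regions below the caller's cutoffs cannot be told apart from unbound ones. No paired analysis was possible because the only list used here pools the replicates and no result comes from a test.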
